A study of Mus musculus with 9 samples.

Results

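FGF ligands and their receptor tyrosine kinases were followed by gene symbol through the bulk RNA-seq of whole E15.5 mouse kidneys. The set held 10 genes, the ligands *Fgf1*, *Fgf2*, *Fgf7*, *Fgf8*, *Fgf9*, *Fgf10* and *Fgf20* and the receptors *Fgfr1*, *Fgfr2* and *Fgfr3*, and all 10 were found among the 24138 loci of the deposited table. Each of 3 genotypes was represented by 3 kidneys, each sequenced as a separate library. Homozygous kidneys (*Foxd1GC/+;Ntn1fl/fl*, labelled MUT) carried the *Foxd1* GFP-Cre allele and 2 floxed alleles of *Ntn1*, the gene for the secreted guidance protein netrin 1. Heterozygous kidneys (*Foxd1GC/+;Ntn1fl/+*, HET) carried the same Cre allele with 1 floxed *Ntn1* allele, and kidneys labelled wildtype (*Ntn1fl/fl*, WT) carried 2 floxed alleles and no Cre, so every kidney had at least 1 floxed allele. *Foxd1* drives the Cre in stromal progenitors and their descendants, and Cre-carrying kidneys also have 1 *Foxd1* allele replaced by the insertion. Effects of the Cre allele and of *Ntn1* dose therefore cannot be told apart between HET and WT. The kidneys came from 3 crosses, and it is not stated whether libraries with the same number shared a cross.

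Fibroblast growth factors are secreted proteins that bind heparan sulfate and pair receptor tyrosine kinases at the cell surface, which then signal through adaptor proteins and the RAS-MAPK cascade. In the developing kidney, FGF signals keep nephron progenitors alive and cycling, allow the first nephron epithelia to form, and feed branching of the ureteric bud. Receptor splice forms decide which ligand is heard: epithelial forms answer FGF7 and FGF10, while mesenchymal forms answer FGF8, FGF9 and FGF20. The values below are per gene and do not separate splice forms.

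The deposited values are FPKM, fragments per kilobase of transcript scaled to library size, so levels can be set side by side between genes. The sum over all loci was lowest in WT-1 (453753) and highest in WT-2 (545598). Read totals were not in the table, and the spacing of the lowest values gave rough relative depths of 0.570 in WT-2 and 0.613 in MUT-3 with WT-1 set to 1, against 0.904 to 1.28 in the other 6. All 8 nephron progenitor, 8 ureteric and 7 cortical stroma markers averaged 5 FPKM or more, so the defining cell types of the labelled tissue were present. HET-2 carried liver transcripts, with 7 liver markers summing to 749.7 FPKM against 27.0 to 51.8 in the other 8 libraries. *Xist*, which marks 2 X chromosomes, was 187.1 FPKM in HET-3 and 172.8 in MUT-1 and at most 1.25 in the other 7. The Y-linked *Eif2s3y* was 0.409 FPKM in HET-3 and 0.00747 in MUT-1, against 17.4 to 29.0 in the other 7. HET and MUT thus each held a library with the female pattern and WT none. Sex was not balanced against WT, and its part in the differences below was not tested. *Ntn1* ranged from 17.8 to 28.9 FPKM in WT, 12.0 to 16.5 in HET and 10.8 to 16.5 in MUT, lower in every Cre library than in every WT library but overlapping between HET and MUT. *Foxd1* lay between 20.2 and 24.8 FPKM in the 6 Cre libraries and between 25.8 and 33.7 in WT.

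*Fgfr1* and *Fgfr2* were the abundant part of the set, *Fgf8* lay beside *Fgfr3*, and the other ligands were scarcer. Over the 9 libraries, mean levels were 64.3 FPKM for *Fgfr1*, 36.8 for *Fgfr2*, 10.9 for *Fgf8*, 9.30 for *Fgfr3*, 4.85 for *Fgf1*, 3.59 for *Fgf10*, 2.01 for *Fgf20*, 1.70 for *Fgf9*, 1.37 for *Fgf2* and 0.406 for *Fgf7*. The gaps from *Fgfr1* to *Fgfr2*, from *Fgfr2* to *Fgf8*, from *Fgfr3* to *Fgf1* and from *Fgf10* to *Fgf20* were wider than the spread of single libraries, with no overlap between the 9 values on either side. The other neighbours in this order did not separate. *Fgf8* exceeded *Fgfr3* in 6 of 9 libraries, *Fgf1* exceeded *Fgf10* in 8, *Fgf20* exceeded *Fgf9* in 7 and *Fgf9* exceeded *Fgf2* in 5. *Fgf2* exceeded *Fgf7* in all 9 although their ranges touched. The 3 receptors summed to between 88.9 and 130.8 FPKM per library and the 7 ligands to between 23.1 and 27.9, a ratio of 3.83 to 5.09. In whole tissue, fewer cells of a type and less RNA per cell cannot be told apart.

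**Figure D1:**
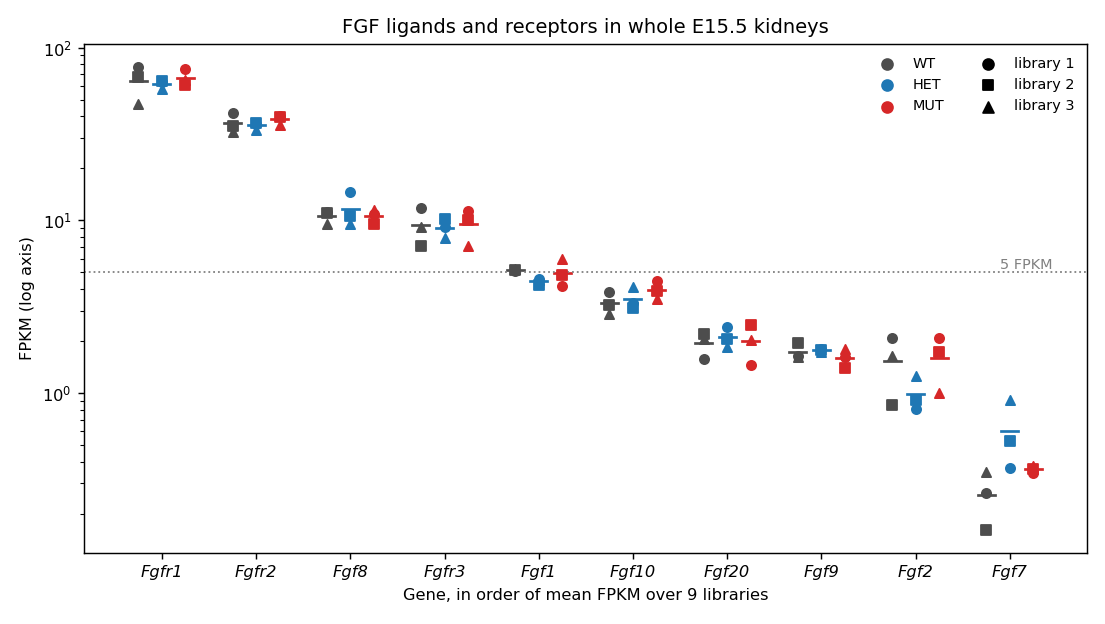
FPKM of each gene on a log axis, in order of the mean over 9 libraries; points are single libraries, coloured by genotype and shaped by library number, short bars are genotype means, and the dotted line is 5 FPKM. *Fgfr1* and *Fgfr2* stand above the rest, the genotypes overlap for every gene except *Fgf1* and *Fgf7* between HET and WT, and *Fgf7* stays under 1 FPKM in all 9 libraries.

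*Fgfr1* and *Fgfr2* are the receptors whose joint loss from the metanephric mesenchyme stops kidney formation, and *Fgfr2* is also the main receptor of the ureteric bud. *Fgfr1* (chromosome 8, 25518759-25575718, plus strand, mm10) was 77.05, 67.9 and 47.3 FPKM in the WT kidneys, numbered 1 to 3 in this order here and throughout. It was 63.3, 64.4 and 57.5 in HET and 75.1, 61.0 and 64.9 in MUT. The WT libraries held both the highest and the lowest value, and all 3 HET values lay between them. Means were 67.0±7.28 FPKM for MUT, 61.7±3.72 for HET and 64.1±15.2 for WT (±s.d., n=3 kidneys per genotype). On the log2(FPKM + 1) scale, MUT minus HET was 0.11 (95% interval -0.15 to 0.38, limma adjusted p = 0.817). MUT-2 and MUT-3 lay within reach of the HET libraries, and only MUT-1 stood clearly above them.

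*Fgfr2* (chromosome 7, 130162451-130266808, minus strand) was 42.0, 35.3 and 32.4 FPKM in WT, 36.1, 36.7 and 33.5 in HET and 39.9, 39.8 and 35.6 in MUT. It was the steadier of both main receptors, with a highest library only 1.30 times the lowest. MUT minus HET was 0.11 on the log2 scale (95% interval -0.12 to 0.35, limma adjusted p = 0.791), with MUT-3 inside the HET range. The ratio of *Fgfr1* to *Fgfr2* averaged 1.74±0.245 in WT, 1.74±0.0216 in HET and 1.75±0.188 in MUT, so the balance of the main receptors differed less between genotypes than between WT libraries, where it ran from 1.46 in WT-3 to 1.92 in WT-2.

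*Fgfr3* (chromosome 5, 33721724-33737068, plus strand), a receptor known chiefly for restraining bone growth, was the least abundant of the 3. Its level was 11.8, 7.06 and 9.16 FPKM in WT, 9.13, 10.2 and 7.91 in HET and 11.4, 10.02 and 7.08 in MUT. The lowest values were in WT-2 and MUT-3, the libraries with the lowest relative depth, and the part of depth in this was not tested. Its coefficient of variation within genotypes averaged 20.3%, against a median of 11.8% over 1723 loci of like level, which placed it at percentile 90.4. MUT minus HET was 0.04 (95% interval -0.31 to 0.40, limma adjusted p = 0.954), and the sign turned without HET-3 (-0.04), MUT-1 (-0.09) or MUT-2 (-0.0048). *Fgfr3* supplied 6.41% to 10.3% of the summed receptor FPKM, *Fgfr2* 31.6% to 36.5% and *Fgfr1* 53.2% to 61.5%.

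**Figure D2:**
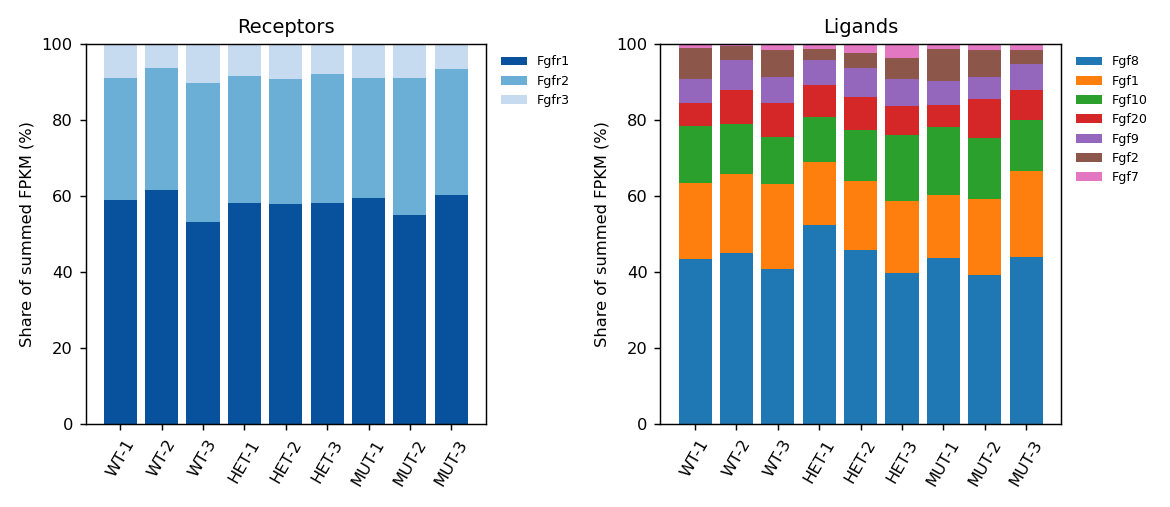
Share of summed FPKM in each library, in percent, for the 3 receptors (left) and the 7 ligands (right); each bar is 1 library and adds to 100. *Fgfr1* makes up 53.2% to 61.5% of receptor FPKM and *Fgf8* 39.3% to 52.4% of ligand FPKM, the highest *Fgf8* share being in HET-1.

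*Fgf8* is made by the pretubular aggregates and renal vesicles, where it is needed for nascent nephrons to survive and mature. It was the most abundant ligand in every library. *Fgf8* (chromosome 19, 45736798-45742884, minus strand) was 11.2, 11.1 and 9.50 FPKM in WT, 14.6, 10.6 and 9.49 in HET and 10.9, 9.52 and 11.4 in MUT. HET-1 stood above the other 8 libraries, which fell between 9.49 and 11.4. MUT minus HET was -0.09 on the log2 scale (95% interval -0.42 to 0.23, limma adjusted p = 0.877), and without HET-1 it was 0.07. MUT minus WT was 0.01 (95% interval -0.27 to 0.28, adjusted p = 1.0), the smallest of the 10 differences between these genotypes.

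*Fgf9* and *Fgf20* are partners in kidney development: ureteric bud *Fgf9* and nephron progenitor *Fgf20* together keep the progenitors undifferentiated. *Fgf9* (chromosome 14, 58072686-58112720, plus strand) was 1.64, 1.94 and 1.62 FPKM in WT, 1.80, 1.77 and 1.72 in HET and 1.62, 1.40 and 1.78 in MUT. *Fgf20* (chromosome 8, 40279166-40286953, minus strand) was 1.56, 2.20 and 2.06 FPKM in WT, 2.40, 2.05 and 1.84 in HET and 1.45, 2.48 and 2.03 in MUT. The genotypes overlapped for both ligands. *Fgf9* was among the steadiest loci of its level, with a within-genotype coefficient of variation of 8.30% against a median of 15.8% over 668 loci, at percentile 7.19. *Fgf20* varied more, 18.8% against 15.3%, and the lowest and highest *Fgf20* libraries, MUT-1 and MUT-2, were of the same genotype. The ratio of *Fgf9* to *Fgf20* accordingly ran from 0.563 in MUT-2 to 1.12 in MUT-1, a range that contained all WT and HET ratios. Both genes fell under the 5 FPKM minimum of the main test. At a minimum of 1 FPKM, MUT minus HET was -0.09 for *Fgf9* (95% interval -0.35 to 0.17, limma adjusted p = 0.856) and -0.06 for *Fgf20* (-0.40 to 0.28, adjusted p = 0.920).

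*Fgf10* and *Fgf7* both come from mesenchyme and stroma and both signal to epithelium through the same splice form of FGFR2, and *Fgf7* loss leaves kidneys with smaller ureteric trees. The 250 bases before the RefSeq start of each gene (assembly GRCm38.p6, plus strand) are printed because these ligands share a receptor but differ widely in level, with CG dinucleotides in capitals. They lie at chr13:118714449-118714698 for *Fgf10* and chr2:126034408-126034657 for *Fgf7*.
Fgf10: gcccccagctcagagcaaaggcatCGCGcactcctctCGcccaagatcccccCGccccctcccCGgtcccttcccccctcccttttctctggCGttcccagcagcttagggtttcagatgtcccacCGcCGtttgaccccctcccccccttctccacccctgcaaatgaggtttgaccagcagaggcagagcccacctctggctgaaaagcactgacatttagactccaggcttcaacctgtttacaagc
Fgf7: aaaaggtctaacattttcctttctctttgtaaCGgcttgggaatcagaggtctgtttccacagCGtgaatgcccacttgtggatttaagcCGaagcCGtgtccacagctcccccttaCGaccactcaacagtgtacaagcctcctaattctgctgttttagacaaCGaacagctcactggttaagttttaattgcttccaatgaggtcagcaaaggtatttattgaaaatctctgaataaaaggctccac
The *Fgf10* stretch was 61.2% G and C with 8 CG dinucleotides, and the *Fgf7* stretch was 43.6% with 6. Over 32851 RefSeq promoters of the same length the medians were 52.4% and 6, so the stretches lay on opposite sides of the median base composition. These counts describe the windows alone, and their part in the levels was not tested.

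*Fgf10* (chromosome 13, 118714699-118792573, plus strand) was 3.85, 3.22 and 2.86 FPKM in WT, 3.30, 3.10 and 4.12 in HET and 4.45, 3.91 and 3.49 in MUT. The highest library was a MUT library and the lowest a WT library, with overlap between all genotypes. At a minimum of 1 FPKM, MUT minus HET was 0.14 (95% interval -0.15 to 0.43, limma adjusted p = 0.810) and MUT minus WT was 0.20 (-0.10 to 0.50, adjusted p = 1.0). Among the 10 genes this was the largest MUT minus WT difference on the log2(FPKM + 1) scale, and with a pseudocount of 0.1 that of *Fgf7* was larger (0.40).

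*Fgf7* was the scarcest gene of the set, at 0.262, 0.161 and 0.347 FPKM in WT, 0.368, 0.526 and 0.908 in HET and 0.342, 0.361 and 0.379 in MUT. Every HET library lay above every WT library, the nearest pair being HET-1 at 0.368 and WT-3 at 0.347 FPKM, and the MUT libraries sat tightly among the lowest HET and the highest WT values. It passed neither the 5 FPKM nor the 1 FPKM minimum. With no minimum, HET minus WT was 0.34 on the log2(FPKM + 1) scale (95% interval 0.02 to 0.66, limma unadjusted p = 0.0415, adjusted p = 0.991), and the exact two-sided permutation test gave p = 0.1, the smallest that 3 libraries against 3 allow. The difference depended on the pseudocount at this level, being 0.93 with a pseudocount of 0.1 and 0.14 with 3. Without HET-3, the highest library, it was 0.20. HET-3 also held the highest *Fgf6*, *Fgf16* and *Fgf22*, none of them above 0.168 FPKM. The ratio of *Fgf10* to *Fgf7* was 14.3±5.86 in WT, 6.47±2.27 in HET and 11.0±1.91 in MUT, and ran from 4.54 in HET-3 to 19.9 in WT-2. The 6 smooth muscle markers summed to 101.1 to 129.6 FPKM in WT, 123.3 to 176.2 in HET and 99.2 to 133.8 in MUT, with overlap. Within HET the sums were 138.1, 176.2 and 123.3 FPKM. HET-2, the library with liver transcripts, held the highest HET sum, and HET-3, with the highest *Fgf7*, the lowest. Singly, *Actg2* was 8.24 to 16.3 FPKM in HET, 3.16 to 4.79 in WT and 4.06 to 5.55 in MUT. *Myh11* and *Cnn1* were also higher in every HET library than in all WT and MUT libraries. *Tbx18* was higher in every HET than in every WT library, while *Acta2* and *Tagln* overlapped. Over all loci with no minimum, 5.44% separated HET from WT and 9.31% MUT from HET. At the 1 FPKM minimum, all 6 HET minus WT differences were above 0 (median 0.47). All 6 MUT minus HET differences were below 0 (median -0.41), and 0 passed in either comparison. At the 5 FPKM minimum, 52.4% of all tested loci were above 0 for HET minus WT and 45.9% for MUT minus HET. In HET against WT, every fitted liver, macrophage and urothelium marker was also above 0, and every podocyte, proximal tubule and endothelium marker below 0. The part of the smooth muscle markers in the *Fgf7* values was not tested. The locus of the table spans chromosome 2, 125859109-126152004, and is shared with *Galk2* at 21.1 to 25.7 FPKM and *Fam227b* at 0.00822 FPKM or less, while the annotated gene covers 126034658-126091185, so the assignment of reads within it is uncertain.

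*Fgf1* binds every FGF receptor form and, like *Fgf2*, leaves cells without a signal peptide. *Fgf1* (chromosome 18, 38838673-38971274, minus strand) was 5.10, 5.12 and 5.20 FPKM in WT, 4.57, 4.19 and 4.52 in HET and 4.17, 4.81 and 5.94 in MUT. The 3 WT libraries were almost identical and all lay above the 3 HET libraries, while MUT held both the lowest and the highest value of the 9. HET minus WT was -0.18 (95% interval -0.51 to 0.15, limma adjusted p = 0.998), with p = 0.1 by the exact two-sided permutation test. The gene passed the 5 FPKM minimum in this comparison through its WT mean of 5.14 alone. MUT minus HET, tested at the minimum of 1 FPKM, was 0.13 (-0.16 to 0.42, adjusted p = 0.820).

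*Fgf2* (chromosome 3, 37348653-37404830, plus strand), a broadly acting mitogen of mesenchymal cells, was 2.08, 0.856 and 1.64 FPKM in WT, 0.807, 0.909 and 1.26 in HET and 2.07, 1.74 and 0.994 in MUT. Its within-genotype coefficient of variation was 33.0% against a median of 16.2% over 674 loci of like level, at percentile 89.5. The highest values were in WT-1 and MUT-1, the libraries with the lowest FPKM sums, and the part of library composition in this was not tested. MUT minus HET was 0.37 (95% interval -0.03 to 0.76, limma adjusted p = 0.775 and unadjusted p = 0.0653 at a minimum of 1 FPKM), the largest difference of the set between these genotypes on the log2(FPKM + 1) scale, while the ratio of means was 1.61 for *Fgf2* and 0.601 for *Fgf7*. HET-3 exceeded MUT-3, so the genotypes overlapped. HET minus WT was -0.32 (-0.75 to 0.11, adjusted p = 0.999) and MUT minus WT 0.05 (-0.43 to 0.52, adjusted p = 1.0). HET enters both of the larger differences, which share those 3 libraries. For MUT against HET, *Fgf2* met the 1 FPKM minimum through its MUT mean of 1.60 alone. For HET against WT it did so through its WT mean of 1.53 alone.

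Neighbouring transcripts limit the reading of several ligands. *Fgf2* overlaps *Nudt6* (2.44 to 3.66 FPKM), *Fgf1* lies across *Arhgap26* (2.21 to 2.76 FPKM) and *Fgf20* overlaps *Micu3* (3.43 to 5.14 FPKM), each on the opposite strand. The library kit keeps strand, but use of strand in the counting is not stated, so reads from overlapping stretches cannot be assigned with certainty.

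No gene of the set differed between genotypes beyond the test's threshold. The main test took loci averaging 5 FPKM or more in at least 1 of the genotypes compared, which *Fgf8* and the 3 receptors met for MUT against HET, and *Fgf1* also met for MUT against WT and for HET against WT. Of these, 0 of 4, 0 of 5 and 0 of 5 passed an adjusted p of 0.05, where the share over all tested loci was 0% in each comparison (limma with Benjamini-Hochberg adjustment, 10081, 10096 and 10105 loci). At an unadjusted p under 0.05 the set again counted 0 in each, beside 6.31%, 0.644% and 1.07% of tested loci. At the 1 FPKM minimum 9 of the 10 genes were tested and 0 passed, beside 0% of 13041, 12984 and 13056 loci. Counting separation of the 3 libraries from the 3 without any minimum, 0 of 10 genes separated MUT from HET and 0 of 10 MUT from WT, beside 9.31% and 5.25% of all loci. Between HET and WT, 2 of 10 separated, *Fgf1* lower and *Fgf7* higher in HET, beside 5.44%. The 3 receptor differences had a median of 0.11 for MUT minus HET and 0.08 for MUT minus WT, against medians of -0.02 and -0.00 over all tested loci, of which 45.9% and 48.7% were above 0. All 3 overlapped between genotypes, and leaving out 1 library turned the sign of each against WT, to -0.11 for *Fgfr1* and -0.0052 for *Fgfr2* without WT-3 and to -0.14 for *Fgfr3* without WT-2. For MUT minus HET the sign stayed for *Fgfr1* (0.029 to 0.18) and *Fgfr2* (0.074 to 0.17) and turned for *Fgfr3* (-0.088 to 0.22). The intervals for *Fgfr1*, *Fgfr2*, *Fgfr3* and *Fgf8* between MUT and HET reached no further than 0.42 in either direction.

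**Figure D3:**
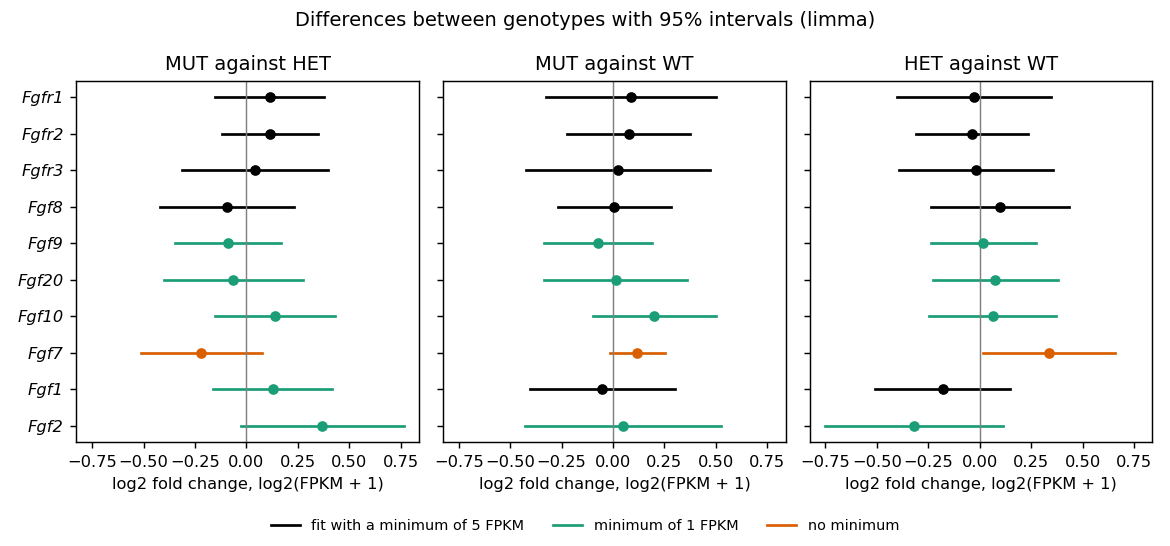
Log2 fold changes on the log2(FPKM + 1) scale (points) with 95% intervals (lines) from limma, for MUT against HET, MUT against WT and HET against WT; black marks genes that met the 5 FPKM minimum, green those tested at 1 FPKM and orange *Fgf7*, tested with no minimum. Every interval includes 0 except that of *Fgf7* in HET against WT (0.02 to 0.66), whose adjusted p was 0.991.

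Other FGF genes were also scarce. Of 11 further secreted ligands, 0 reached a mean of 5 FPKM and *Fgf18* alone averaged above 1, at 1.36 FPKM, followed by *Fgf15* at 0.965 and *Fgf3* at 0.257. *Fgf15*, an endocrine-type FGF, was 1.19, 1.14 and 1.05 FPKM in HET and 0.644, 0.715 and 0.942 in MUT, so every MUT library lay below every HET library. WT, at 0.700, 1.24 and 1.06, overlapped both. Among the 11 ligands, *Fgf5*, *Fgf16* and *Fgf17*, all under 1 FPKM, were higher in every HET than in every WT library. Over all loci with no minimum, 9.31% separated MUT from HET and 5.44% separated HET from WT. The MUT minus HET difference of *Fgf15* did not pass the test (-0.27, limma adjusted p = 0.775 at a minimum of 1 FPKM). This gene met that minimum through its HET mean of 1.13 alone. Among the intracellular FGF-like genes, which are not secreted, *Fgf13* averaged 3.12 FPKM, *Fgf11* 2.84 and *Fgf12* 1.04.

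Further receptors and co-receptors were present at intermediate levels. *Fgfr4*, the fourth kinase receptor, averaged 8.36 FPKM, close to *Fgfr3*, and ranged from 6.58 in HET-3 to 11.5 in WT-1. *Fgfrl1*, a receptor without a kinase domain whose loss in mice stops nephron formation, averaged 19.0 FPKM and ranged from 15.1 to 22.2. The membrane proteins *Flrt2*, *Flrt3* and *Flrt1*, which can bind FGF receptors, averaged 27.4, 10.03 and 0.823 FPKM. The klotho genes *Kl* and *Klb*, co-receptors of endocrine FGFs, averaged 4.22 and 0.0541 FPKM. The carrier proteins *Fgfbp3* and *Fgfbp1* averaged 4.16 and 1.60 FPKM. For MUT against HET, 4 of these 9 genes were tested and 0 passed, with 3 higher, 1 lower and a median difference of 0.12. Over all tested loci 45.9% were higher. *Fgfrl1* differed by 0.16 (limma adjusted p = 0.745), *Fgfr4* by 0.12 (0.853), *Flrt2* by 0.12 (0.828) and *Flrt3* by -0.03 (0.961). *Kl* ranged from 1.81 FPKM in MUT-3 to 7.51 in MUT-2, and its differences from WT were -0.40 in MUT and -0.56 in HET (adjusted p = 1.0 and 0.998). In both comparisons it met the 5 FPKM minimum through its WT mean of 5.26 alone. The sum of the 5 proximal tubule markers was also lowest in HET-3 and MUT-3 and highest in MUT-2, from 47.7 to 97.0 FPKM. Singly, *Hnf4a* and *Fbp1* were highest in MUT-2, *Lrp2* and *Slc34a1* in WT-1 and *Cubn* in WT-3. The part of these markers in *Kl* was not tested.

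Heparan sulfate proteoglycans and the enzymes that build and trim their chains hold FGFs at the cell surface. *Gpc3*, a glypican, was by far the most abundant at 491 FPKM, followed by *Sdc2* at 43.9 and *Gpc1* at 43.3. All 18 listed genes were tested and 0 passed in any comparison. For MUT against HET, 14 were higher and 4 lower, with a median of 0.12 against -0.02 over all tested loci, of which 45.9% were higher. Without HET-2 the split was 13 and 5, and after correction for GC content 14 and 4. At an unadjusted p under 0.05, 4 of 18 were higher, beside 3.68% of tested loci. Named after their values were seen, these were *Ndst1*, a chain sulfating enzyme (0.53), *Hspg2*, perlecan (0.51), *Hs6st1*, another sulfating enzyme (0.37), and *Sdc3*, a syndecan (0.35), each with a limma adjusted p of 0.738, and without HET-2 the count was 3. For HET against WT the split was the opposite, 6 higher and 12 lower with a median of -0.06, and for MUT against WT it was 15 and 3 with a median of 0.09, beside 52.4% and 48.7% of all tested loci that were higher. HET libraries enter the first and second of these comparisons.

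Of 20 adaptor and RAS-MAPK genes, which carry the signal from receptor to nucleus, 19 were tested and 0 passed. *Mapk3*, a kinase at the end of the cascade, averaged 58.0 FPKM and differed between MUT and HET by -0.07 (limma adjusted p = 0.887). For MUT against HET, 11 were higher and 8 lower with a median of 0.02, beside 45.9% of all tested loci that were higher. *Grb2*, an adaptor named after its values were seen, was the single gene at an unadjusted p under 0.05 (0.28, limma adjusted p = 0.738). Over all tested loci 3.68% were higher at that p. Without HET-2 there were 0 higher genes of the list at it, and after correction for GC content 2. For MUT against WT the split was 14 and 5, and for HET against WT 7 and 12, beside 48.7% and 52.4% of all tested loci that were higher.

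Feedback inhibitors and target genes report on signal strength, because FGF signalling itself switches many of them on. Mean levels were 48.5 FPKM for *Spry1*, 45.9 for *Dusp6*, 32.1 for *Etv4*, 27.7 for *Etv5*, 27.1 for *Spred1*, 19.7 for *Spred2*, 17.4 for *Spry2*, 9.95 for *Il17rd*, 9.31 for *Dusp4*, 7.27 for *Spry4*, 4.50 for *Dusp5*, 3.66 for *Spred3* and 2.59 for *Etv1*. Of the 13 genes 10 were tested and 0 passed in any comparison. For MUT against HET, 6 were higher and 4 lower, beside 45.9% of all tested loci that were higher. The 6 were *Spred2* (0.33), *Spry1* (0.20), *Spred1* (0.19), *Spry2* (0.19), *Dusp4* (0.18) and *Il17rd* (0.12). Of these *Spred2* alone fell under an unadjusted p of 0.05, with a limma adjusted p = 0.738, beside 3.68% of tested loci higher at that p. Without HET-2, the library with liver transcripts, 0 higher genes of the list fell under it, and after correction for GC content 1 did. The 4 were *Dusp6* (-0.21), *Spry4* (-0.05), *Etv5* (-0.04) and *Etv4* (-0.01). Of the 3 genes under 5 FPKM, *Dusp5* differed by -0.0011, *Spred3* by -0.03 and *Etv1* by 0.04.

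*Dusp6*, a phosphatase that removes activating phosphates from ERK, separated HET from both other genotypes. It was 46.5, 44.0 and 44.4 FPKM in WT, 49.4, 51.9 and 47.6 in HET and 46.0, 38.4 and 44.5 in MUT. HET libraries lay above every WT and MUT library, and MUT and WT overlapped. The differences did not pass the test (MUT minus HET -0.21, limma adjusted p = 0.738, and HET minus WT 0.14, adjusted p = 0.998). *Spry2*, a sprouty inhibitor, moved the other way, with MUT at 20.7, 17.2 and 17.2 FPKM above HET at 15.51, 15.8 and 16.6 and WT spread over both at 21.3, 16.2 and 15.495 (MUT minus HET 0.19, adjusted p = 0.738). These were the separations in a list of 10 tested genes, 1 in each direction, beside 5.19% higher and 4.5% lower over all tested loci, and *Dusp6* was the 1 separation between HET and WT, beside 2.15% higher.

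**Figure D4:**
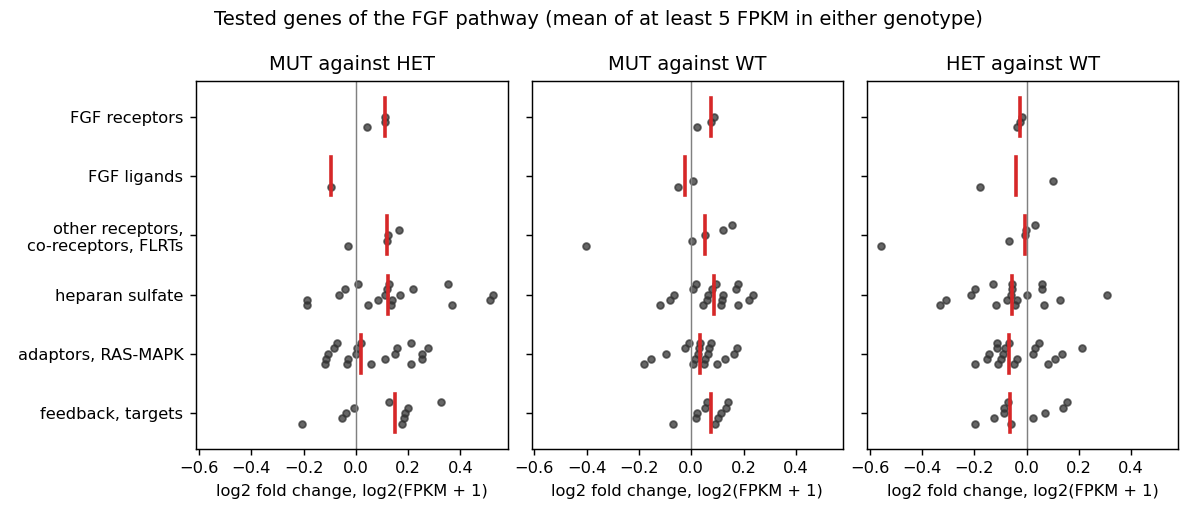
Log2 fold changes on the log2(FPKM + 1) scale of each tested FGF pathway gene (points), by list, for the 3 comparisons; red bars are list medians. For MUT against HET the medians are 0.11 for receptors, 0.12 for heparan sulfate genes, 0.02 for adaptors and 0.15 for feedback genes and targets, and 0 genes passed the adjusted threshold.

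Across the 9 libraries, Pearson's r on log2(FPKM + 1) was 0.80 between *Fgfr1* and *Fgfr2*, 0.71 between *Fgfr2* and *Fgfr3* and 0.35 between *Fgfr1* and *Fgfr3*. *Fgf2* followed *Fgfr3* (0.70) and ran against *Fgf9* (-0.75). These coefficients describe 9 libraries of 3 genotypes that share scaling and depth differences. Over 9978 loci with a mean of at least 5 FPKM, profiles among the most like that of *Fgfr1* were *Ncdn* (0.985) and *Gse1* (0.985), for *Fgfr2* *Rap1gap* (0.981) and *Nedd4l* (0.977), and for *Fgfr3* *Adamts1* (0.973) and *Trim3* (0.948). For the ligands they were *Klhdc4* (0.932) and *Ccrn4l* (0.926) for *Fgf8*, *Chaf1b* (0.977) for *Fgf9*, *Sec61b* (0.987) and *Spcs1* (0.983) for *Fgf20*, *Flnc* (0.928) and *Zbtb12* (0.924) for *Fgf10*, *Atg10* (0.866) and *Wdfy1* (0.785) for *Fgf1*, and *Wwtr1* (0.981) and *Mid2* (0.980) for *Fgf2*. These loci were picked for high coefficients out of 9978 over 9 libraries, and no background was computed, so the values do not show shared regulation. *Fgf7*, under 1 FPKM, was not searched.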

How the data were processed

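RNA from 9 whole kidneys was sequenced on an Illumina NextSeq with a stranded mRNA kit. Per the labels and the paper's methods, the authors mapped the reads with STAR, built transcripts with Cufflinks and used CuffDiff for FPKM, and the submitters' processing notes name the build mm10. The deposited FPKM of 24138 loci, 355 of which carry joined gene names, were used unchanged, and read counts were not used here, so no counting error is given. Groups were taken from the sample labels.

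From these values, log2(FPKM + 1) was compared by limma 3.58.1 under R 4.3.3 (lmFit, then trended eBayes, two-sided, Benjamini-Hochberg adjustment, threshold 0.05), with only the 2 genotypes compared in a fit, no block, and loci averaging 5 FPKM or more in at least 1 of them. Fold changes on this scale understate those of low genes. Lower genes were fitted at a minimum of 1 FPKM or none. Exact permutation tests of 3 libraries against 3 cannot go below p = 0.1. The study describes the 3 kidneys of a genotype as biological replicates. Positions are 1-based. GENCODE release 21 supplied GC content for 95.9% of loci. RefSeq promoters were taken outside chromosome 18, which holds *Fgf1*, and matched 6 of 10 genes. On simulated libraries (MUT against HET, 10059 genes) the test called 2%, 52%, 80% and 98% of genes changed 1.2-, 1.5-, 2- and 4-fold, and 3 of 9859 unchanged genes. The simulated noise was drawn independently for each locus and library from the variance of that locus within genotypes, with 50 genes changed at each size. Whether these rates hold for genes under 5 FPKM, or where deviations are shared between loci, was not tested. In the deposited values, *Ntn1* differed by -0.87 for MUT against WT and did not pass (limma unadjusted p = 0.0015, adjusted p = 0.9998).

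The genes, lists, tests and alternatives were chosen with earlier results of these data known. All 10 genes, every further receptor and feedback gene, the 3 most abundant genes of each other list, *Ntn1*, *Foxd1* and the 2 loci most correlated with each gene of at least 1 FPKM were to be named, and some of these are not reported here. Alternatives were pseudocounts of 0.1 and 3, other minimums, median-ratio and quantile scaling, all 9 libraries in a fit, a replicate block, a GC correction (spline with 5 degrees of freedom), no trend and each library left out.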

Additional observations from a re-analysis of the deposited data

How the results depend on the processing

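The number of loci past the adjusted threshold was 0 in each comparison under every alternative that kept all libraries. Leaving out a library gave 0 to 3 loci for MUT against HET, 0 to 3 for MUT against WT and 0 to 3 for HET against WT, the highest numbers coming without MUT-3, WT-1 and WT-2, and 0 of them were FGF genes of the set or its lists. Same-numbered libraries did not deviate together throughout (correlations for numbers 1 to 3 of -0.32, 0.06 and -0.14 for MUT and HET, 0.56, -0.26 and -0.04 for MUT and WT, and -0.19, -0.05 and 0.17 for HET and WT), so the numbers were not taken as pairs. With a replicate block, 0 loci were called in each comparison, and 494, 201 and 233 had an unadjusted p under 0.05, against 636, 65 and 108 without it. Signs of differences near 0 turned in some settings. For MUT against WT, the GC correction gave -0.079 for *Fgf8* and -0.022 for *Fgfr3*, with and without the replicate block, and for HET against WT quantile scaling gave 0.0047 for *Fgfr3*. Leaving out libraries gave, for MUT against HET, -0.21 to 0.072 for *Fgf8* and -0.088 to 0.22 for *Fgfr3*. For MUT against WT it gave -0.11 to 0.23 for *Fgfr1*, -0.0052 to 0.18 for *Fgfr2*, -0.14 to 0.20 for *Fgfr3*, -0.16 to 0.047 for *Fgf1* and -0.063 to 0.076 for *Fgf8*. For HET against WT it gave -0.23 to 0.12 for *Fgfr1*, -0.12 to 0.063 for *Fgfr2*, -0.18 to 0.15 for *Fgfr3* and -0.066 to 0.22 for *Fgf8*. Of the genes fitted at the lower minimum, signs also turned for *Fgf20* (-0.18 to 0.072) between MUT and HET, for *Fgf2* (-0.16 to 0.23) and *Fgf20* (-0.10 to 0.15) between MUT and WT, and for *Fgf9* (-0.014 to 0.071), *Fgf10* (-0.032 to 0.15) and *Fgf20* (-0.020 to 0.14) between HET and WT. The cause of these turns was not tested. With 3 libraries per genotype and unknown read depth, 2% of simulated 1.2-fold and 52% of 1.5-fold changes were called. Such rates belong to simulated noise that was independent between loci, and they were not tested for shared deviations or for genes under 5 FPKM. The list counts without HET-2 and after GC correction were added after the data were seen.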
